A study of Mus musculus with 2 samples.

Results

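The oocyte growth factor genes Gdf9, Bmp15, Bmp6 and Fgf8, the receptor gene Kit with its ligand gene Kitl, and the signal transducer genes Smad2 and Smad3 were followed probe by probe in unfertilised oocytes of Mul1 knockout mice and in wild-type oocytes. These 8 genes were taken by the gene name printed in the array files, out of 36995 gene names, and they were covered by 14 of the 56600 gene probes used. The knockout RNA came from a pool of 123 oocytes of C57BL/6 mice labelled MUL1 -/-, and the wild-type RNA from a pool of 213 oocytes of C57BL/6 mice labelled MUL1 +/+. Each pool was hybridised to 1 single-colour Agilent array. Neither the age of the mice, nor the part of Mul1 that was deleted, nor the tissues lacking it is stated in the labels. With 1 array per genotype no test is possible, and every difference below is a description of this pair of arrays.

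GDF9 and BMP15 are ligands of the TGF-beta family that the oocyte secretes, and they act on the cumulus and granulosa cells around it. GDF9 signals through the type II receptor BMPR2 and a type I receptor to SMAD2 and SMAD3, while BMP15 and BMP6 signal mainly through SMAD1 and SMAD5. In mice FGF8 from the oocyte acts together with BMP15 on cumulus cell glycolysis. Communication in the other direction runs through Kit ligand, which granulosa cells make, and its receptor tyrosine kinase KIT on the oocyte, which acts through PI3 kinase on AKT and FOXO3 and is needed for follicle growth.

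The probe sequences are shown where probes of a gene did not read alike, which was the case for Kitl, and where a probe under a gene's name represents another transcript, as for Kit. All are 60 bases long, are given 5′ to 3′ as the array files print them, and carry the file's own positions, which are on mouse build mm9. In the Kitl probes the capitals mark the cysteine codon in the only reading frame that has no stop. These probes lie in the coding part of the transcript, which encodes the extracellular region of the ligand, and disulphide bonds between its cysteines hold that region in shape. In the Kit probes nothing is marked.
Kitl probe 1: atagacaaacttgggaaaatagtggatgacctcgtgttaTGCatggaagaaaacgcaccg
Kitl probe 2: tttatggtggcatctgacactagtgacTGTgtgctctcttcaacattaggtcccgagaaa
Kit probe 1: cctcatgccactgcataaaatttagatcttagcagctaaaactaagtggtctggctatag
Kit probe 2: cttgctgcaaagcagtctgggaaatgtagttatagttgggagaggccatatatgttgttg
Kitl probes 1 and 2 represent the RefSeq transcript NM_013598 at transcript positions 497 and 656, on the plus strand at chr10:99539477-99539536 and chr10:99542704-99542763. They are 99 bases apart in the transcript and 3167 bases apart in the genome, so intron sequence lies between them. Kit probes 1 and 2 represent the unclassified cDNA clone AK047175, on the plus strand at chr5:76048202-76048261 and chr5:76048262-76048321. They adjoin each other and end 4072 bases before the probe for the Kit mRNA.

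The arrays were alike in depth. The scanner software called 64.5% of gene probes on the knockout array and 66.0% on the wild-type array well above background, and no gene spot was saturated. The 35255 probes well above background on both had a median difference of 0.02, where all differences are knockout minus wild type in log2 signal after subtraction of each array's 75th percentile. For Mul1, whose product is a ubiquitin ligase of the mitochondrial outer membrane, the probe for NM_026689 read 1074 on the knockout array and 3353 on the wild-type array, a difference of -1.61, so a signal well above background remained on the knockout array, and the probe for ENSMUST00000105815 read 23.1 on the knockout array and 19.3 on the wild-type array, a difference of 0.29. Markers of other cells were present on both arrays and some differed at least 2-fold. Of 12 myeloid markers all were measured and 10 were at least 2-fold higher on the knockout array, with a median of 1.79 and summed signals, on 1 scale, of 82662 on the knockout array and 32193 on the wild-type array. Most of each sum was Lyz2, with signals of 45836 on the knockout array and 21388 on the wild-type array. The 5 red cell markers measured of 6 were all at least 2-fold lower, with sums of 24538 on the knockout array and 75935 on the wild-type array. Of 8 oviduct and endothelium markers, all measured, Ovgp1 (1.54), Kdr (1.13) and Epcam (1.09) were at least 2-fold higher, the other 5 lay between -0.29 and 0.11, and the median was 0.08. Their sums were 124258 on the knockout array and 79553 on the wild-type array, and the signal of Ovgp1 alone was 69104 on the knockout array and 24266 on the wild-type array. With normexp background correction Kdr was 0.90 and Epcam 0.59, and with no filter on dim probes Kdr was 0.01. The 9 theca and stroma markers measured of 10 had a median of 0.37, with 7 above 0, 3 at least 1.5-fold higher and 1 lower, while their sums, most of them Acta2, were 24606 on the knockout array and 25062 on the wild-type array. Insl3 had no probe.

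None of the 13 member probes well above background on both arrays was at least 2-fold apart, where 4.58% of all such probes were (2.72% higher and 1.86% lower). At 1.5-fold none was higher, beside 7.36% of all probes, and 1 was lower, beside 6.4%. The member probes had a median difference of 0.14, with 7 above 0 and 6 below, and ran from -0.83 to 0.53. Each had 1 spot per array. Errors printed with signals are those of the scanner software, which assumes a proportional error of 0.1, so most differences carry an error of about 0.20. For 286 other probes, printed at 8 or more spots, the SD of the difference over spots was 0.04 in the median and at most 0.20. Both figures describe spots and leave out the spread between pools of oocytes and between amplifications. By the first of these errors 9 of the 13 differences were larger than their error and 4 were smaller. The same count over all probes is not given here, so this count does not set the members apart from other probes.

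**Figure D1:**
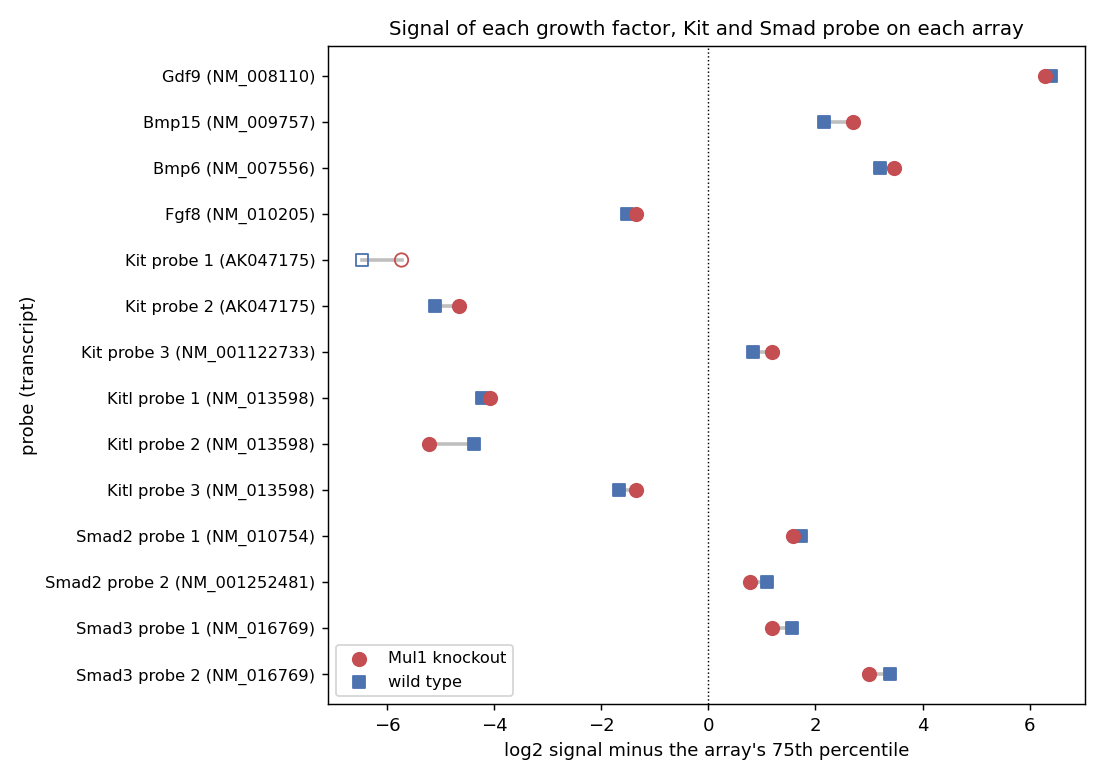
Signal of each of the 14 probes on the knockout array (circles) and the wild-type array (squares), as log2 signal minus the array's 75th percentile on the horizontal axis, with open symbols for a probe not well above background. Symbols are to be compared within a row, and in every row they are less than 1 log2 unit apart.

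Among the ligands that oocytes secrete, Bmp15 differed most. Its probe for NM_009757, on the minus strand at chrX:5891550-5891609, had a signal of 5121 ± 512 on the knockout array and 3619 ± 362 on the wild-type array, a difference of 0.53 ± 0.20 or a 1.45-fold higher value. The arrays were further apart here than the error of the scanner software allows for. For comparison, all probes were sorted by signal into 10 bins of equal size. In the bin of Bmp15 1.79% of probes lay higher, and the central 90% ran from -0.37 to 0.33. Bmp15 was above 0 in all 9 alternative processings, from 0.50 to 0.67.

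Gdf9, which is required for follicles to pass the primary stage in mice, was alike on the arrays. The probe for NM_008110, at chr11:53251307-53251366 on the plus strand, read 61515 ± 6152 on the knockout array and 68126 ± 6813 on the wild-type array. The difference of -0.11 ± 0.20 was smaller than its error and turned to 0.02 with spike-in controls as the scale. No pixel of either spot was saturated, of 41 on the knockout array and 40 on the wild-type array, so the brightness of this probe did not reach the scanner's limit. Gdf9 and Bmp15, whose products act together on cumulus cells, thus lay on opposite sides of 0 except on the spike-in scale, with Gdf9 inside its error and Bmp15 outside.

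The other secreted factors were slightly higher on the knockout array. Bmp6, at chr13:38591479-38591538 on the plus strand, read 8727 ± 873 on the knockout array and 7417 ± 742 on the wild-type array, a difference of 0.27 ± 0.20. Fgf8, at chr19:45811355-45811414 on the minus strand, read 309.6 ± 31.1 on the knockout array and 282 ± 28.4 on the wild-type array. Its difference of 0.17 ± 0.21 was within the error. Both lay inside the central 90% of probes as bright as they were, and both were above 0 in the 9 alternative processings. Of 14 oocyte markers, all well above background on both arrays, Ooep (0.94) and Nlrp5 (0.77) were at least 1.5-fold higher, where 7.82% of all genes were. Ooep was dim, with signals of 62.7 on the knockout array and 33.5 on the wild-type array. Of the 14 markers 8 lay below 0 and none was 2-fold apart (1 was on the spike-in scale). They had summed signals of 151074 on the knockout array and 164624 on the wild-type array, and a median of -0.03 (0.10 on the spike-in scale). In RNA of pooled cells, fewer cells of a type and less RNA per cell cannot be told apart, here and in all values that follow.

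Kit, the receptor of Kit ligand, was higher on the knockout array by less than 1.5-fold. The mRNA probe, Kit probe 3 for NM_001122733 at chr5:76052394-76052453 on the plus strand, read 1805 ± 181 on the knockout array and 1445 ± 145 on the wild-type array, a difference of 0.35 ± 0.20. In its signal bin 9.42% of probes lay higher. The first AK047175 probe printed above was not well above background on either array, at 14.9 on the knockout array and 9.18 on the wild-type array, so no fold is given for it. The second read 31.3 ± 4.63 on the knockout array and 23.6 ± 3.65 on the wild-type array, a difference of 0.44 ± 0.31, and became 0.14 with normexp background correction. This second probe lay close to background, at 1.98 times the lowest detected signal on the knockout array and 1.84 times on the wild-type array. The first lay below that signal, at 0.94 times on the knockout array and 0.71 times on the wild-type array. Mast cells also carry KIT. Of 8 mast cell markers 5 were well above background on each array, with sums of 9952 on the knockout array and 11764 on the wild-type array. Most of each sum was Hdc, with signals of 9118 on the knockout array and 10856 on the wild-type array. The others measured were Tpsb2, Cpa3, Cma1 and Mcpt4, while Fcer1a, Ms4a2 and Tpsab1 were not well above background on either array. The part of mast cells in the Kit values was not tested.

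Kitl was not read alike by its 3 probes. Probe 3, near the 3′ end at transcript position 4884 (chr10:99562481-99562540, plus strand), read 310.3 ± 31.2 on the knockout array and 254 ± 25.6 on the wild-type array. It differed by 0.32 ± 0.21. Probe 1 read 46.6 ± 5.77 on the knockout array and 43.2 ± 5.14 on the wild-type array, a difference of 0.14 ± 0.25, within its error. Probe 2, in contrast, read 21.3 ± 4.46 on the knockout array and 38.8 ± 4.81 on the wild-type array, a difference of -0.83 ± 0.35 or a 1.78-fold lower value. It was the member probe past 1.5-fold, and the probe 99 bases upstream on the same transcript did not share its direction. Probe 2 was also dim on the knockout array, at 1.35 times the lowest detected signal there, and its difference shrank to -0.20 with normexp background correction. In its signal bin 2.61% of probes lay lower. Kitl is made by granulosa cells, and all 14 cumulus and granulosa markers were well above background on both arrays, with 11 above 0, a median of 0.41 and summed signals of 191710 on the knockout array and 167589 on the wild-type array. Their part in the Kitl values was not tested.

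Smad2 and Smad3, which carry the GDF9 and activin signal to the nucleus, were lower on the knockout array at all 4 of their probes, each by less than 1.5-fold. Smad3 probe 1 (chr9:63495131-63495190, minus strand) read 1795 ± 179.5 on the knockout array and 2382 ± 238 on the wild-type array, a difference of -0.38 ± 0.20. Smad3 probe 2, 497 bases away (chr9:63494574-63494633, minus strand), read 6312 ± 631 on the knockout array and 8439 ± 844 on the wild-type array, a difference of -0.39 ± 0.20. Both Smad3 probes thus gave nearly the same difference, and both measure the same RNA samples. In their signal bins 6.07% and 4.62% of probes lay lower, in the same order. Smad2 probe 1, for NM_010754, read 2354 ± 235 on the knockout array and 2688 ± 269 on the wild-type array, a difference of -0.16 ± 0.20. Smad2 probe 2, for NM_001252481, read 1356 ± 136 on the knockout array and 1726 ± 173 on the wild-type array, a difference of -0.32 ± 0.20. For Smad2 the first of these was smaller than its error and the second was larger. Lower than these Smad2 values lay 20.5% and 11.1% of the probes in their signal bins, in the same order. All 4 values stayed below 0 in every alternative processing, between -0.39 and -0.03, the values nearest to 0 being those on the spike-in scale.

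**Figure D2:**
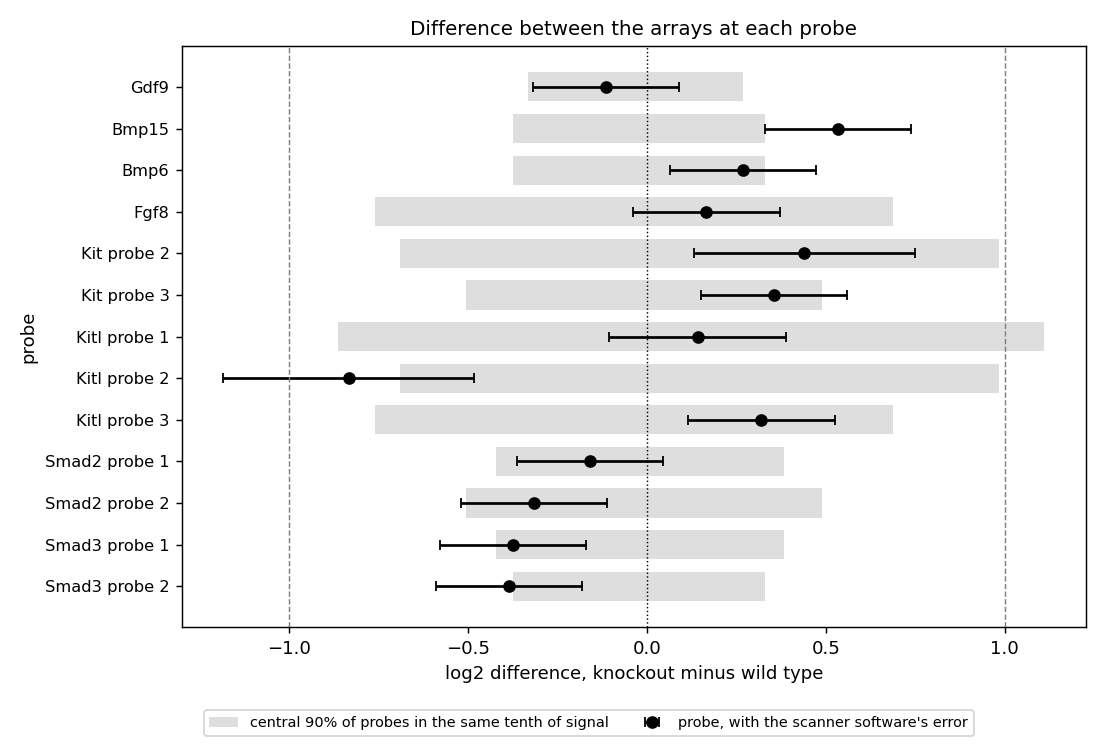
Log2 difference, knockout minus wild type, at the 13 probes well above background on both arrays (points, with the scanner software's error), the central 90% of all probes in the same signal bin (grey bars) and a 2-fold difference (dashed lines). Bmp15, Kitl probe 2 and Smad3 probe 2 lie outside the grey bar of their row and the other 10 inside, and no point reaches a dashed line; on the spike-in scale Gdf9 lies above 0.

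The genes around the members were read gene by gene, as the mean over probes well above background on both arrays. Of 145 pathway genes beside the members 142 were measured, with a median of 0.07 against 0.03 over all 22882 genes measured. At least 2-fold differences were seen for 4 that were higher (2.82%, against 2.92% of all genes) and 2 that were lower (1.41%, against 1.37%), together beside 4.3% of all genes, and both shares are near those of all genes. With normexp background correction Bmp4 (0.86), Ptpn6 (0.98) and Areg (-0.62) were no longer 2-fold apart, and on the spike-in scale Areg (-0.89) was not. At 1.5-fold 15 were higher (10.6%, against 7.82%) and 4 were lower (2.82%, against 5.19%).

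Receptors of the TGF-beta family, through which the oocyte factors act, had a median of 0.16 over 12 measured of 12 genes, with none at least 2-fold apart and 8 above 0. The type I receptor genes Acvrl1, which endothelium uses, and Acvr1b, an activin receptor, were at least 1.5-fold higher at 0.66 and 0.59. With normexp they were 0.38 and 0.47, and Acvr1b kept the call in 5 of 10 alternatives. The GDF9 and BMP15 receptor genes Bmpr2, Tgfbr1 and Bmpr1b read 0.06, -0.01 and 0.28. Other Smads and their regulators had a median of 0.05 over 15 of 15 genes (-0.06 when each gene was read by its brightest probe), with none at least 1.5-fold apart. Smad4, the common partner of Smad2 and Smad3, was the highest at 0.32 and the co-repressor gene Skil the lowest at -0.48. Beside the lower values of Smad2 and Smad3, Smad5 read 0.19, Smad6 0.07, Smad7 0.27, Smad9 0.05 and Smad1 -0.10. Whether Smad2 and Smad3 differ from these beyond the spread between pools cannot be tested here.

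BMP antagonists had a median of -0.14 over 9 measured of 10 genes, with none at least 1.5-fold apart, follistatin (Fst) highest at 0.55 and chordin (Chrd) lowest at -0.23. Chrdl1 passed the background call for wild type alone. Its probe that was brightest on the wild-type array read 13.0 on the knockout array and 25.2 on the wild-type array, at least 1.56-fold lower. By another probe Chrdl1 read 17.7 on the knockout array. All these signals were dim. Other ligands of the family had a median of 0.32 over 14 of 15, with Gdf10 not well above background on either array. Bmp4, a ligand of theca and stroma cells, was at least 2-fold higher at 1.19, with brightest signals of 442 on the knockout array and 223 on the wild-type array, beside the theca and stroma median of 0.37. The part of theca and stroma cells in the Bmp4 value was not tested. Bmp7 and Bmp8b were at least 1.5-fold higher at 0.68 and 0.66, and Amh, a product of granulosa cells, was lower at -0.81, with dim signals of 35.4 on the knockout array and 63.3 on the wild-type array. With normexp none of these 3 stayed 1.5-fold apart, at 0.34 for Bmp7, 0.19 for Bmp8b and -0.31 for Amh. Enzymes that cleave the precursors or shed Kit ligand had a median of 0.41 over 8 of 8 genes. That median was 0.20 with normexp and 0.07 with the stricter filter on dim probes. Of these genes 4 were at least 1.5-fold higher, where 7.82% of all genes were. Mmp9, a protease abundant in neutrophils, was at least 2-fold higher at 2.99 (1.65 with normexp), with signals of 221 on the knockout array and 28.4 on the wild-type array, beside the myeloid markers given above. The part of myeloid cells in the Mmp9 value was not tested. Adam33, an enzyme reported to cleave Kit ligand, was at least 1.5-fold higher at 0.77 and the convertase gene Pcsk6 at 0.75 (0.27 and 0.52 with normexp). Adam33 was dim, with signals of 34.3 on the knockout array and 20.5 on the wild-type array. Adam8 was also at least 1.5-fold higher, at 0.70, while Furin read 0.11 and Adam17 -0.03.

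FGF receptors and response genes had a median of 0.06 over 15 measured of 16, with none at least 2-fold apart. The feedback inhibitor gene Spry2 was at least 1.5-fold lower at -0.99, by probes at -1.10 and -0.87. Genes downstream of Kit had a median of 0.02 over 30 of 30. The phosphatase gene Ptpn6, which blood cells express, was at least 2-fold higher at 1.25, although its probes ran from 0.36 to 1.71, and the leukocyte PI3 kinase gene Pik3cd was at least 1.5-fold higher at 0.76. Both moved in the direction of the myeloid markers, whose part in them was not tested. The kinase genes Akt1 and Akt2 read 0.05 and 0.06, and Foxo3, the transcription factor that restrains primordial follicles, read -0.44.

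**Figure D3:**
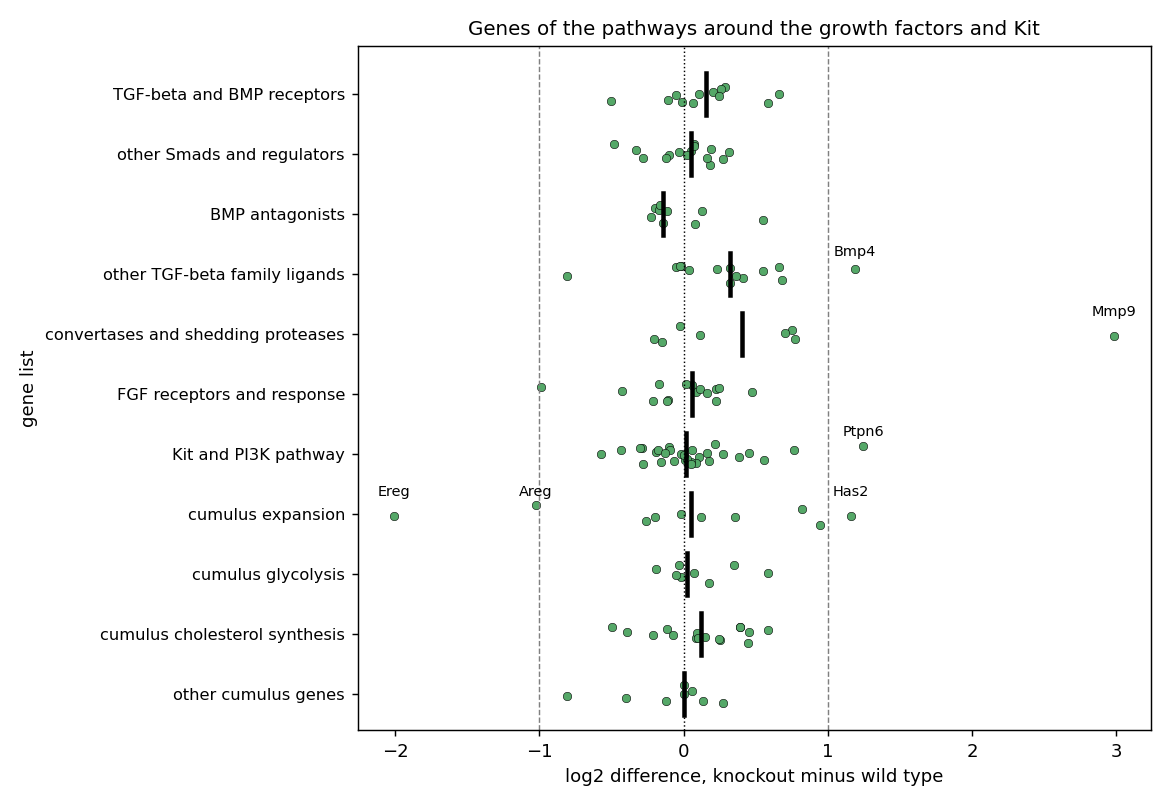
Log2 difference, knockout minus wild type, of each measured gene (points) in 11 gene lists of the pathways, with each list's median (black bars) and 2-fold differences (dashed lines); genes past a dashed line are named. The medians lie between -0.14 and 0.41, and named genes are Bmp4, Mmp9, Ptpn6 and Has2 on the higher side and Ereg and Areg on the lower side; with normexp Bmp4, Ptpn6 and Areg lie inside the lines.

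Cumulus genes known to respond to oocyte factors in mice were read in 4 lists. In the expansion list, 1 of 10 measured genes was at least 2-fold higher and 2 were lower. Of all genes 2.92% and 1.37% were, in this order. The list had a median of 0.05. On the spike-in scale 2 of its genes were higher and 1 was lower, and with normexp 1 was higher and 1 lower. The hyaluronan synthase gene Has2 (1.16), the matrix gene Ptx3 (0.95) and the prostaglandin receptor gene Ptger2 (0.82) were higher. The EGF-like ligand genes Ereg and Areg were lower at -2.01 and -1.02. Areg was dim, with signals of 64.1 on the knockout array and 133 on the wild-type array. Tnfaip6, Ptgs2 and Grem1 read -0.01, -0.26 and -0.20, so the list had members on both sides. Glycolysis genes had a median of 0.03 over 8 of 8 (-0.02 with a stricter filter on dim probes), with none at least 1.5-fold apart. Eno1 was highest at 0.58, which rests on 1 probe at 1.84 for ENSMUST00000130632 while its RefSeq probes read -0.08 and -0.01. The glucose transporter gene Slc2a1 was lowest at -0.19. Cholesterol synthesis genes had a median of 0.12 over 16 of 16, with 11 above 0 and Sc5d the gene at least 1.5-fold apart, at 0.59 (0.52 with normexp). The remaining cumulus genes had a median of 0.00 over 8 of 8 (between -0.02 and 0.13 under the alternatives), with Amh at least 1.5-fold apart, as given above. Kitl is among them at -0.12, the mean of its 3 unlike probes. The list was not split by the direction in which oocyte factors move each gene, so its median does not measure a response.

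**Figure D4:**
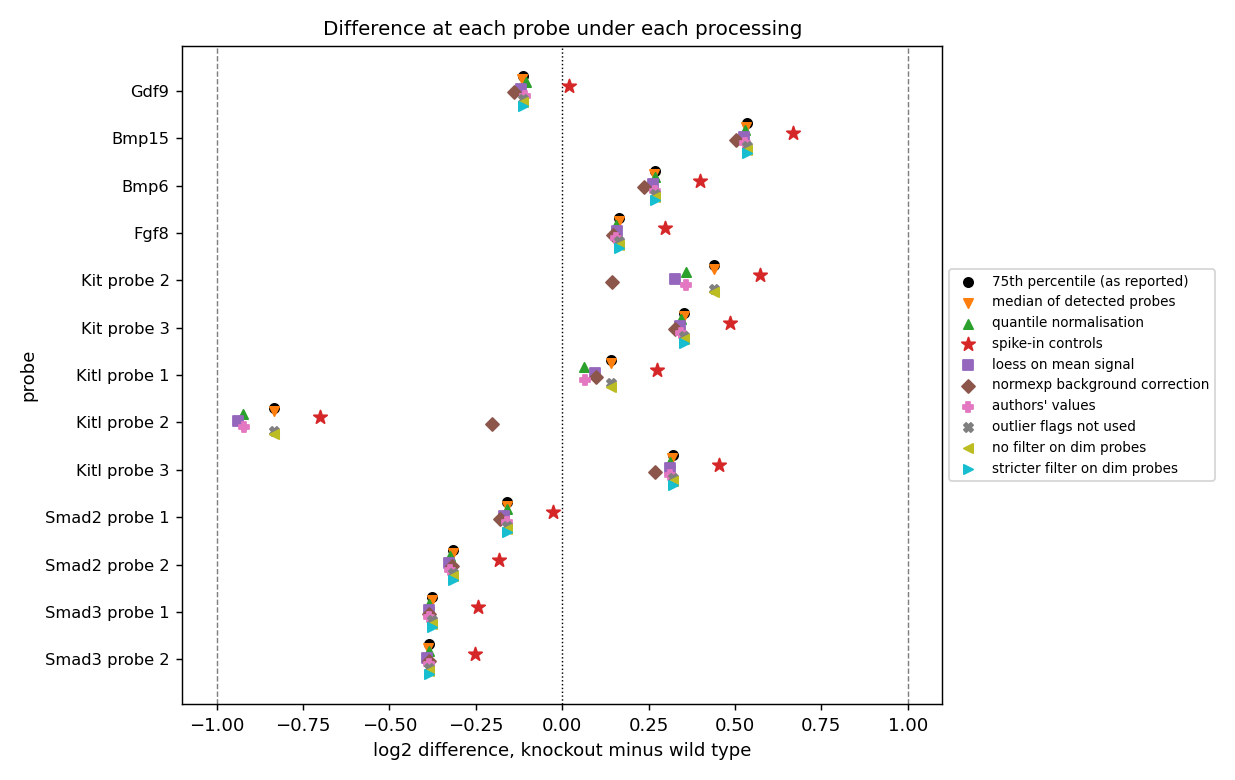
Log2 difference, knockout minus wild type, at the 13 member probes as reported (black circles) and under up to 9 alternative processings (other symbols; 8 for the 3 dimmest probes, which the stricter filter drops), with 2-fold differences as dashed lines. Spike-in scaling (stars) moves every probe up by the same amount and takes Gdf9 to 0.02, and normexp background correction (diamonds) takes Kitl probe 2 to -0.20.

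No gene was named for a pattern like that of a member, because 2 arrays give each gene a single difference.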

How the data were processed

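RNA of 1 pool of oocytes per genotype was measured on 1-colour (Cy3) Agilent arrays. Per the file headers, the deposited intensity tables come from Agilent Feature Extraction 10.7.1.1 (the submitters' processing notes name 9.5.1.1), with the signal background-subtracted and detrended within each array. The authors' deposited series-wide table of intensity is linear, and its sorted columns differ by at most 0.0243%, so it is quantile normalised.

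The log2 of the processed signal was taken, control spots and spots flagged as outliers (84 knockout, 88 wild-type) were left out, spots of 1 probe were averaged, and the array's own 75th percentile (signals of 789.6 for knockout and 808 for wild type) was subtracted. Probes were named by accession (33892), symbol (9462) or synonym (489) through RefSeq, assembly GRCm38.p6, used for names only, and 12757 kept the name in the file. Summed signals take the brightest probe per gene after scaling to the wild-type array's percentile. The members and lists were chosen with earlier results of these data known. Named are all members, list genes at least 1.5-fold apart (up to 3 per side, otherwise the extremes), markers at least 2-fold apart, and Mul1. Myeloid and red cell markers are given as counts, with Lyz2 alone named. Other list genes given with values were chosen after these were seen. Tools were Python 3.11.15, statsmodels 0.14.6 and limma 3.58.1. The steps were tested on simulated data with 200 changed probes of 56605, all recovered as at least 2-fold apart. Every planted change was larger than 2-fold, so the test does not bear on the smaller differences of the member probes.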

Additional observations from a re-analysis of the deposited data

How the results depend on the processing

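Tried were scaling by the median detected probe, by spike-in controls (8 probes) or by quantiles, loess (span 0.3), normexp (offset 50), the authors' values, no use of outlier flags, dim probes kept or cut more strictly (at 4 times the lowest signal well above background), and, for gene lists, the brightest probe. No member probe reached 2-fold under any of them. Spike-in scaling moved the median of all genes to 0.16, the median of the member probes to 0.28 and the count at least 1.5-fold higher to 1, and Gdf9 changed side. With the stricter filter that median was 0.025. Over all probes 297 were at least 2-fold higher and 237 lower with normexp, 4310 and 2395 with no filter, 442 and 391 with the stricter filter and 1309 and 448 on spike-ins, against 959 and 654 as reported. The count at least 1.5-fold lower was 0 with the stricter filter and with normexp, and the count higher was 1 with no filter, where the dim Kit probe enters. All other member probes kept their sign. Without replicates, dim probes are the least certain. No paired analysis was possible because each genotype has 1 array.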

Other observations

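Among 85 pathway genes with several probes, 6 (7.06%) had probes whose differences lay at least 2-fold apart, against 7.27% of 8042 genes on the array. For Eno1, 2 probes for NM_023119 read -0.08 and -0.01 while the probe for ENSMUST00000130632 read 1.84, with signals of 1882 on the knockout array and 536 on the wild-type array. For Msmo1, of cholesterol synthesis, the probes for NM_025436 read 0.17 and 0.21 and the probe for ENSMUST00000135943 read -1.56, at 108.8 on the knockout array and 329 on the wild-type array. For Rptor, a subunit of the mTOR complex, the probe for NM_028898 read 0.16, that for ENSMUST00000130049 -0.50 and that for AK137878 -1.38. For the activin receptor gene Acvr2a the probes for NM_007396 read -0.33 and 0.07 and that for AK050252 -1.24, at 19.8 on the knockout array and 48.0 on the wild-type array. In these 4 genes the probe farthest from the others represents an Ensembl or clone transcript. In Ptpn6 (0.36 to 1.71) and Gdf3 (-0.01 to 1.11) RefSeq probes disagreed among themselves.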
